A study of Homo sapiens with 2 samples.

Results

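The genes described here are the HOX protein genes of the 4 human HOX clusters, chosen as every row of the deposited table whose symbol is HOXA, HOXB, HOXC or HOXD followed by a number. The table held 37 such genes among 18930 genes. HOXB1 and HOXD8 were not analysed here. Of the 37 genes, 34 had counts in both libraries, and HOXA7, HOXC12 and HOXD10 were listed without a count. RNA sequencing had been run on 1 library labelled DR and 1 labelled WT, called the DR library and the WT library below. For both the labels give A375, a line derived from human melanoma, grown in DMEM with 10% FBS, and skin as the source. In the paper, DR stands for cells made resistant to dacarbazine (DTIC), an alkylating drug, and WT for their wild-type control, whereas the labels give 105 days of treatment with "DITC" for both libraries. Columns were matched to samples by the sample descriptions, which differ by a single character (_) and do not say wild type, so every direction below rests on them.

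HOX genes encode transcription factors that bind DNA through the homeodomain and set the identity of cells along the head-to-tail axis of the embryo. Within each cluster the genes lie in the order of their paralog numbers, low numbers being switched on earlier and further towards the head than high numbers. Adult cells commonly keep the set of HOX genes that their lineage had in the embryo, which is why the set is read as a record of origin. The proteins bind DNA together with PBX and MEIS proteins, and the clusters are held active by MLL complexes and silent by Polycomb complexes.

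The libraries held 54878355 and 35294670 estimated reads in the order DR, WT, and levels are given as CPM, in which read counts are made comparable between libraries of unequal depth, here with edgeR's TMM factors. At this depth 3 reads were worth 0.0540 CPM in the DR library and 0.0861 CPM in the WT library. With 1 library per group there was no replicate check and no p-value, and every 95% interval covers read counting only, from reads without molecular identifiers. In such bulk RNA, fewer expressing cells and less RNA per cell cannot be told apart. The melanocyte markers were mixed, and SOX10, TYRP1 and DCT, all below 1 CPM in both libraries, went against the label. SOX10 had 3 and 0 reads, TYRP1 0 and 17 reads and DCT 13 and 9 reads in the order DR, WT, and 3 of the 6 melanocyte markers in the table reached 1 CPM in each library. They were MITF at 34.6 and 34.7 CPM, PMEL at 4.46 and 2.35 CPM and MLANA at 2.21 and 2.55 CPM. TYR and S100B were not analysed here. All 9 plasma cell markers did so, with a median of 451 and 430 CPM, and JCHAIN, the joining chain of immunoglobulins, stood at 2012 and 2917 CPM. For this reason DR and WT are used only as the labels of the libraries.

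The homeobox is the part of each HOX gene that encodes the DNA-binding homeodomain. That of HOXB9 is shown because HOXB9 is the high-numbered end of the run of HOX genes detected here. HOXB9 was also the one whose level was lower in the DR library by more than counting error under TMM scaling. The homeobox was read from a GENCODE 29 transcript of GRCh38, is 180 bases long and lies on the minus strand within exon 2, at chr17:48622921-48623100. Capitals mark the stretch that encodes the conserved core of the recognition helix, which contacts DNA.
HOXB9: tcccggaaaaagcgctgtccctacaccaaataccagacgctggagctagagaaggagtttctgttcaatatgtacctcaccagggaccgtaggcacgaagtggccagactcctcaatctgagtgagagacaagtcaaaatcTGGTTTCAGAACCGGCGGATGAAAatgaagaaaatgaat
In all 4 clusters the order of the homeoboxes along the chromosome was the order of the paralog numbers, and each cluster lay on 1 strand. The B cluster spanned chr17:48528526-48729178 of GRCh38, with HOXB13 at its far end.

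The same 6 HOX genes reached 1 CPM in both libraries, and all 6 belonged to the B cluster. They were HOXB3, HOXB4, HOXB6, HOXB7, HOXB8 and HOXB9. No HOX gene reached 1 CPM in only 1 of the libraries, and 28 reached it in neither. Of all genes, 13578 reached 1 CPM in the DR library and 13285 in the WT library. How many of those were shared is not given here, so the sharing of HOX genes has no background. The lowest of the 6 stood at 1.26 CPM in the DR library (HOXB8) and 1.09 CPM in the WT library (HOXB6). Just outside the limit was HOXA13, a gene of the distal limb and hindgut, with 0.954 CPM in the DR library,. The intervals of HOXB8 in the DR library (0.982 to 1.59 CPM) and of HOXB6 in the WT library (0.771 to 1.5 CPM) crossed 1 CPM, as did that of HOXA13 in the DR library (0.715 to 1.25 CPM). Membership at the edge of the set was therefore not settled by counting alone.

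The B cluster took 2137 of 2325 HOX reads in the DR library, which is 91.9% (95% Clopper-Pearson interval 90.7 to 93%). In the WT library it took 938 of 1039 reads, or 90.3% (88.3 to 92.0%). The intervals overlapped. The A cluster held 119 and 61 reads (5.12% and 5.87%), the C cluster 41 and 29 reads (1.76% and 2.79%), and the D cluster 28 and 11 reads (1.20% and 1.06%), in the order DR, WT. Divided by gene length, the share of the B cluster was 92.2% and 91.0%. The B cluster was the source of nearly all HOX reads in both libraries.

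**Figure D1:**
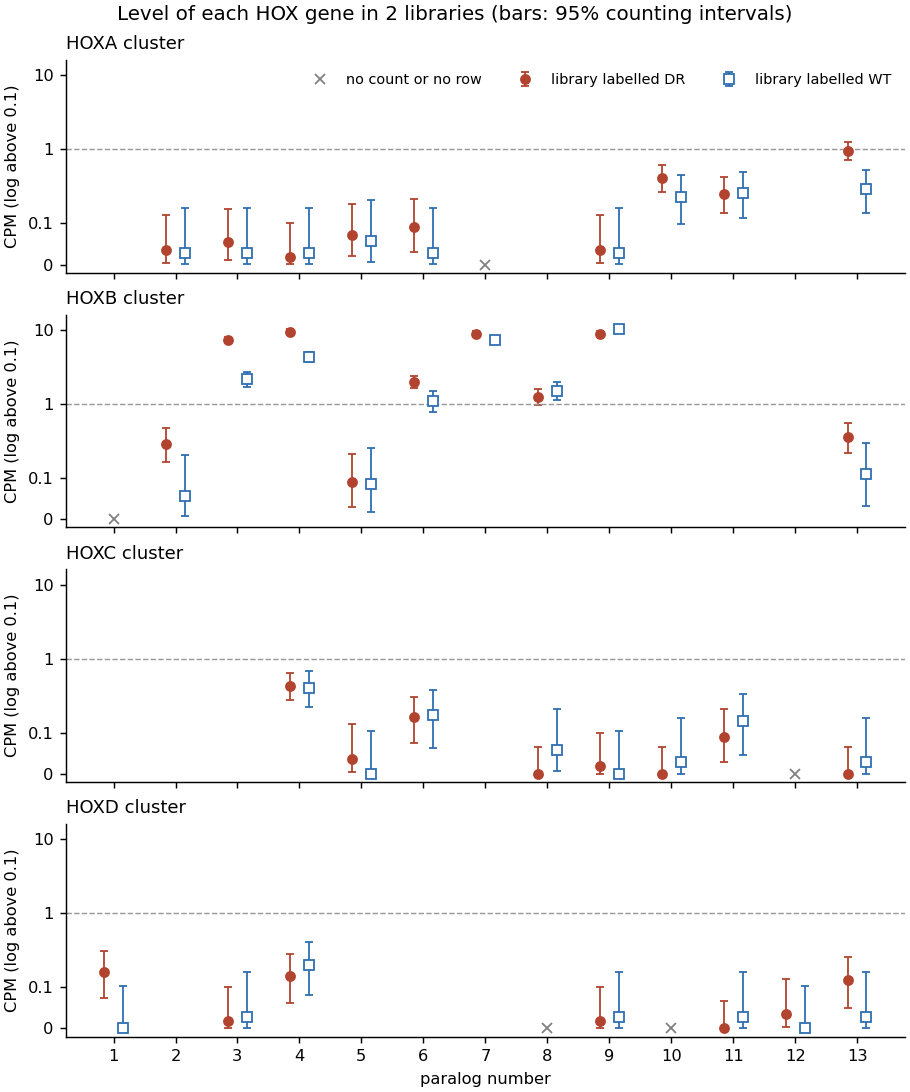
Level of each HOX gene in CPM (vertical axis, logarithmic above 0.1) against paralog number, 1 panel per cluster. Filled circles are the DR library, open squares the WT library, bars exact 95% Poisson intervals, crosses genes without a count or a row, and the dashed line 1 CPM. Blank positions are paralogs that a cluster does not have or that are not reported here. The 6 genes above the line in both libraries are all in the B panel, where HOXB5 stands near 0.1 CPM between HOXB4 and HOXB6.

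The other 28 genes with counts shared 229 and 110 reads. Of the 34 genes, 30 had at least 1 read in each library, and 13 in the DR library and 19 in the WT library had 3 reads or fewer. HOXC4, the C cluster paralog of HOXB4, had 24 and 14 reads (0.432 and 0.402 CPM). HOXA10, known from the uterus and from blood progenitors, had 23 and 8 reads (0.414 and 0.229 CPM). Both were below 1 CPM in both libraries. HOXC4 and HOXC6 transcripts share an identical run of 484 bases, which leaves their reads uncertain. HOXA11 had 14 and 9 reads, HOXC6 9 and 6, HOXC11 5 and 5, and HOXD4 8 and 7. HOXD1 had 9 reads in the DR library and 0 in the WT library, where the limit set for a count of 0, which is the worth of 3 reads, was 0.0861 CPM, and HOXD13 had 7 and 1. Each of the other 16 genes that had under 10 reads in all, HOXB5 among them, had 0 to 5 reads in either library. Levels this low were at or near the value of a few reads and gave no order among these genes.

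Even the 6 detected genes were modest. Their CPM lay between percentiles 18.2 and 40.5 of the 16210 genes that had 10 or more reads in the libraries together, whose median was 20.0 and 19.6 CPM. The largest HOX value was 10.3 CPM, for HOXB9 in the WT library. To compare genes with each other, CPM was divided by the length in kb that the table gives. HOXB7 then led in both libraries, with 6.48 (5.93 to 7.08) CPM per kb in the DR library and 5.29 (4.66 to 5.98) in the WT library. In the DR library it was followed by HOXB4 with 4.61, HOXB9 with 3.24, HOXB3 with 2.62, HOXB6 with 1.18 and HOXB8 with 0.176 CPM per kb, and each neighbour in this order differed by more than counting error. In the WT library the order was HOXB9 with 3.81, HOXB4 with 2.11, HOXB3 with 0.766, HOXB6 with 0.647 and HOXB8 with 0.209 CPM per kb. There the ratio of HOXB3 to HOXB6 was 1.19 (0.792 to 1.80), so that this pair could not be ordered. On the deposited lengths, but not on the transcript lengths given below, HOXB4 and HOXB9 had changed places between the libraries. The table gives HOXB8 a length of 7139 bases, while its longest GENCODE 29 transcript has 1823 bases. With such transcript lengths HOXB8 stood at 0.691 CPM per kb in the DR library, still the lowest of the 6, below HOXB6 at 1.02. In the WT library it stood at 0.818 CPM per kb, above HOXB6 (0.556) and HOXB3 (0.511) on the same lengths. HOXB4 has 2042 bases in the table and 3757 in its longest GENCODE 29 transcript. With the transcript lengths HOXB9 stood above HOXB4 in both libraries, in the DR library at 3.40 against 2.51 CPM per kb. The place of HOXB4 above HOXB9 in the DR library thus depended on the deposited lengths.

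HOXB5 broke the run. It lies between HOXB4 and HOXB6 on the chromosome and had 5 reads in the DR library and 3 in the WT library (0.0900 and 0.0861 CPM). Per length, HOXB4 was 93.7 (39.9 to 290) times HOXB5 in the DR library and 44.8 (15 to 220) times in the WT library. On the other side, HOXB6 was 24.1 (10.0 to 75.7) and 13.7 (4.36 to 69.6) times HOXB5. The gap was thus present in both libraries. HOXB4 and HOXB5 transcripts share an identical run of 50 bases, and whether reads from such runs were split between genes is not given in the sources used here. The set ended abruptly on both sides. Per length, HOXB3 exceeded its neighbour HOXB2 by 10.7 (6.48 to 18.8) and 15.7 (4.19 to 132) times. HOXB9 exceeded HOXB13, the next gene up, by 27.4 (17.6 to 45.3) and 101 (39.2 to 373) times. Detected genes also stood above those paralogs in other clusters that had counts. In CPM this direction, as at HOXB2, HOXB5 and HOXB13, followed from the detection limit, which the other genes did not reach. HOXB4 was 18.0 (12.0 to 28.4) and 8.86 (5.12 to 16.6) times HOXC4, and HOXB9 was 187 (51.4 to 1547) and 276 (49.2 to 10919) times HOXA9, which had 2 and 1 reads.

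The libraries were then compared gene by gene. A gene with 10 or more reads in all was called higher or lower when log2 (CPM + 0.5) differed by at least 1. Of the 34 HOX genes with counts, 16 passed this filter on reads. HOXB3 and HOXB4 were called higher in the DR library, 0 were called lower and 14 were not called. By the same rule 7.48% of the 16210 genes were higher and 4.16% lower in the DR library. The median log2 difference of the 16 HOX genes was 0.16, against 0.01 for all 16210 genes. It was above 0 for 9 of the 16 (56.3%) and for 51.1% of all genes. A count of 2 among 16 genes is too small to be read against that background.

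HOXB3, which patterns the hindbrain and is active in blood progenitors, had 408 reads in the DR library and 75 in the WT library. This was 7.34 CPM (6.65 to 8.09) and 2.15 CPM (1.69 to 2.70), a 3.41-fold higher level in the DR library, and the log2 difference was 1.56 (1.26 to 1.87). It was the largest difference among the 6 detected genes.

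HOXB4, known for expanding blood stem cells when overexpressed, had 523 and 150 reads. Its level was 9.41 CPM (8.62 to 10.3) in the DR library and 4.30 CPM (3.64 to 5.05) in the WT library, a ratio of 2.19, with a log2 difference of 1.05 (0.80 to 1.29). The interval reached below the limit of 1. With a pseudocount of 5 CPM neither HOXB3 nor HOXB4 was called, at log2 differences of 0.79 and 0.63.

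HOXB6, expressed in limb buds and early blood cells, had 111 and 38 reads, or 2.0 CPM (1.64 to 2.41) and 1.09 CPM (0.77 to 1.5). The log2 difference of 0.65 (0.25 to 1.04) was not called. HOXB7, the leading gene per length, had 496 and 254 reads, or 8.93 CPM (8.16 to 9.75) and 7.29 CPM (6.42 to 8.24), with a log2 difference of 0.28 (0.07 to 0.49). Both intervals lay above 0, and neither difference reached the limit.

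HOXB8, known for holding myeloid progenitors in an immature state when overexpressed, had 70 and 52 reads, or 1.26 CPM (0.98 to 1.59) and 1.49 CPM (1.11 to 1.96). Its log2 difference was -0.18 (-0.57 to 0.22), which counting alone could produce. HOXB9, a gene of the thoracic skeleton and mammary gland, had 488 and 360 reads, or 8.78 CPM (8.02 to 9.60) and 10.3 CPM (9.29 to 11.5), with a log2 difference of -0.22 (-0.41 to -0.03). With library totals the log2 difference of HOXB9 was -0.19, so whether it exceeded counting error may depend on the scaling. The differences along the cluster ran from clearly positive at HOXB3 to slightly negative at HOXB9.

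**Figure D2:**
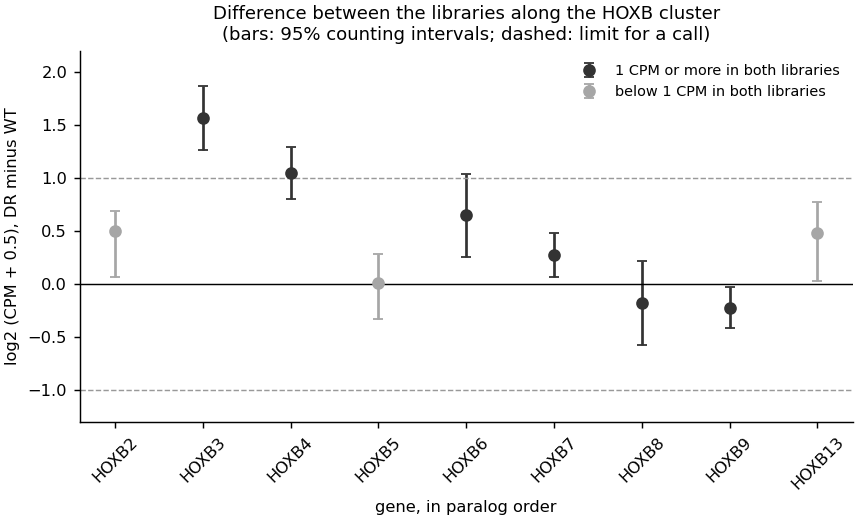
Difference in log2 (CPM + 0.5), DR library minus WT library (vertical axis), for each B cluster gene with counts in paralog order. Bars are 95% intervals from counting, dashed lines the limit of 1 in either direction, black points genes at 1 CPM or more in both libraries and grey points genes below it in both. The black points descend from 1.56 at HOXB3 to -0.22 at HOXB9.

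Over the 6 detected genes the log2 difference descended in paralog order, with Spearman's rho of -1 between difference and paralog number. This is a description over 6 genes that share the same 2 libraries. Without the pseudocount the last pair changed places, at ratios of 0.845 for HOXB8 and 0.851 for HOXB9, and rho was -0.94. Between neighbours, only the step from HOXB3 to HOXB4 exceeded counting error, with a ratio of ratios of 1.56 (1.14 to 2.15). It was 1.19 (0.769 to 1.83) from HOXB4 to HOXB6, 1.5 (0.992 to 2.29) from HOXB6 to HOXB7, 1.45 (0.961 to 2.18) from HOXB7 to HOXB8 and 0.993 (0.665 to 1.49) from HOXB8 to HOXB9. The slope along the cluster thus showed over several genes rather than at each step.

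Scaling between libraries cancels when each gene is set against HOXB9 within its own library. HOXB3 reads were 0.836 times HOXB9 reads in the DR library and 0.208 times in the WT library, a ratio of ratios of 4.01 (3.01 to 5.39). For HOXB4 the ratio of ratios was 2.57 (2.04 to 3.25), for HOXB6 2.15 (1.44 to 3.28) and for HOXB7 1.44 (1.17 to 1.78), all with intervals above 1. The balance within the set therefore differed between the libraries by more than counting error, whichever scaling was used.

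The same shift showed in the make-up of B cluster reads. HOXB3 supplied 19.1% (17.4 to 20.8%) of them in the DR library and 8.0% (6.34 to 9.92%) in the WT library. HOXB4 supplied 24.5% (22.7 to 26.4%) and 16% (13.7 to 18.5%). HOXB9 supplied 22.8% (21.1 to 24.7%) and 38.4% (35.3 to 41.6%). For these 3 genes the intervals of the libraries did not overlap. HOXB7 supplied 23.2% and 27.1%, HOXB6 5.19% and 4.05%, and HOXB8 3.28% and 5.54%. HOXB8 also had separate intervals, from 2.56 to 4.12% and from 4.17 to 7.21%, while those of HOXB6 and HOXB7 overlapped.

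**Figure D3:**
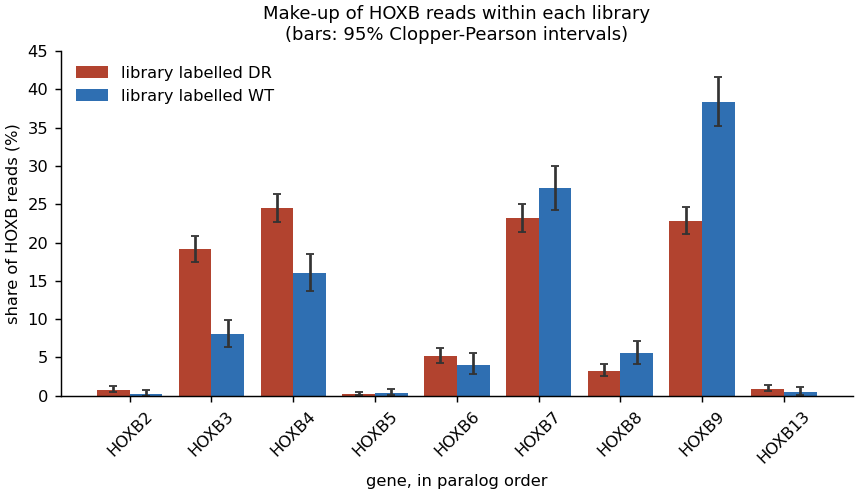
Share of B cluster reads supplied by each gene (vertical axis, percent) in the DR library (red) and the WT library (blue), with 95% Clopper-Pearson intervals. HOXB3 and HOXB4 take larger shares in the DR library, and HOXB9 supplies 22.8% there and 38.4% in the WT library.

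Summed over the cluster, the level was 38.5 CPM (36.8 to 40.1) in the DR library and 26.9 CPM (25.2 to 28.7) in the WT library, a ratio of 1.43. Grouped over all clusters, paralogs 1 to 3 held 19.4% (17.8 to 21.1%) and 10.3% (8.52 to 12.3%) of HOX reads. Paralogs 4 to 8 held 54.1% and 51.0%, and paralogs 9 to 13 held 26.5% (24.7 to 28.3%) and 38.7% (35.7 to 41.7%). The first and last of these groups had separate intervals in the libraries.

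Among the genes below 1 CPM, HOXB2 had 16 and 2 reads with a log2 difference of 0.50 (0.07 to 0.69), and HOXB13, known from the prostate, had 20 and 4 reads with a log2 difference of 0.48 (0.025 to 0.78). HOXA13 had 53 and 10 reads, 0.954 and 0.287 CPM, with a log2 difference of 0.89 (0.42 to 1.27). None was called, but the added 0.5 CPM shrinks differences of genes this low, and with 0.1 CPM in its place HOXA13, HOXB2 and HOXB13 passed the limit as higher in the DR library. With 0.5 CPM added, HOXB2, HOXB5 (log2 difference 0.01) and HOXB13 (24 reads in all) thus departed from the descent along the cluster. Without a pseudocount the ratio of HOXB2, at 5.02, was above the 3.41 of HOXB3.

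Gene models in this region overlap. In GENCODE 29, exons of HOXB3 overlap exons of HOXB4 and HOXB6 on the same strand, and HOXB3 shares identical runs of 65 bases with HOXB4 and 434 bases with HOXB6. On the opposite strand HOXB-AS3 overlaps HOXB3, HOXB5 and HOXB6, and HOXB-AS1 overlaps HOXB2 and HOXB3. The strand of the reads is not given in the sources used here, so reads of a gene and its antisense partner cannot be told apart. The deposited counts of HOXB3 and HOXB4 were whole numbers, and those of HOXB6, HOXB7, HOXB8 and HOXB9 were fractional in at least 1 library. HOXB7, HOXB8 and HOXB9 had no exon overlap with another gene. Of 28 listed noncoding RNAs of the clusters, 0 matched a symbol in the table, and they were not analysed here.

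Across the 34 HOX genes, levels in the 2 libraries correlated with Spearman's rho of 0.82 and Pearson's r of 0.95 on the log2 (CPM + 0.5) scale. Over all 16210 genes both were 0.96. These describe genes within a single pair of libraries, and genes are not replicates. Another way to set the HOX genes beside related genes was to count other homeobox genes. Of 118 with counts, 54 reached 1 CPM in the DR library and 48 in the WT library. They shared 43, which is 79.6% of the first set and 89.6% of the second, with 11 in the DR library only and 5 in the WT library only. For the HOX genes the shared 6 were 100% of each set. The share was also 100% for the PBX, MEIS and PREP cofactors, the MLL, Polycomb and retinoic acid lists and the genes next to the clusters. It was 100% for both lists of cell type markers too. Full sharing was therefore not particular to the HOX genes. The difference between the HOX genes and the other homeobox genes was not tested.

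Of 87 other homeobox genes with at least 10 reads, 11 were higher, 11 were lower and 65 were not called, where all genes gave 7.48% and 4.16%. The median log2 difference was 0.10. POU4F1, a neuronal factor, was lower at 3.82 and 15.2 CPM, a log2 difference of -1.86 (-2.07 to -1.65). Higher in the DR library were POU2F2, a B cell factor, at 12.6 and 2.15 CPM (2.30), BARX2 at 79.2 and 23.3 CPM (1.75) and PROX1, a lymphatic and liver factor, at 15.4 and 5.77 CPM (1.35, not called with a pseudocount of 5 CPM). The log2 difference of POU2F2 was thus larger than that of HOXB3.

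The cofactors of HOX proteins differed in both directions. PBX2 stood at 69.0 and 77.5 CPM, a log2 difference of -0.17 (-0.24 to -0.09), and was not called. PBX3, which acts with HOXA9 in leukaemia, was lower in the DR library at 10.5 and 39.5 CPM, a log2 difference of -1.86 (-2.0 to -1.73). PBX4 was at 0.504 and 0.402 CPM. Of the MEIS genes, MEIS1 was higher at 18.5 and 8.72 CPM, a log2 difference of 1.04 (0.86 to 1.22) that was not called with a pseudocount of 5 CPM, while MEIS2 was lower at 4.19 and 16.7 CPM, with -1.88 (-2.08 to -1.67). MEIS3 was at 0.360 and 0.115 CPM. PKNOX1, which encodes the related factor PREP1, stood at 27.7 and 27.9 CPM, and PKNOX2 had 7 and 2 reads. In all 1 of 8 cofactors tested was higher and 2 were lower, with a median log2 difference of -0.09, where all genes gave 7.48% higher and 4.16% lower. With so few genes these counts cannot be read against that background. MEIS1 and MEIS2 were called in opposite directions.

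**Figure D4:**
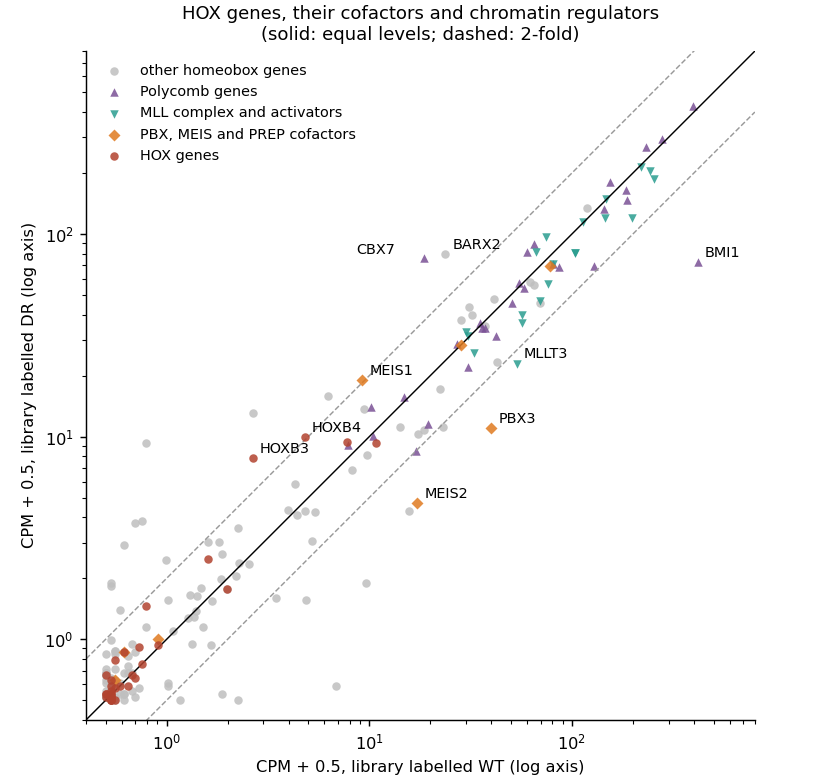
Level in the DR library against the WT library, both as CPM + 0.5 on logarithmic axes, for HOX genes (red circles), PBX, MEIS and PREP cofactors (orange diamonds), Polycomb genes (purple), MLL complex genes and activators (green) and other homeobox genes (grey), without genes that are not reported here. The solid line is equal levels and the dashed lines 2-fold. BMI1, PBX3 and MEIS2 lie below the lower dashed line and CBX7, BARX2, MEIS1, HOXB3 and HOXB4 above the upper one.

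Of 20 genes of the MLL complexes and the activators that work with them, 0 were higher and 1 was lower, with a median log2 difference of -0.32, beside the 7.48% and 4.16% of all genes. KMT2A, the MLL methyltransferase itself, stood at 204 and 243 CPM (log2 difference -0.25, interval -0.29 to -0.21). The gene called lower was MLLT3, a reader that links MLL targets to transcription elongation, at 22.4 and 53.0 CPM (-1.23, -1.33 to -1.12). Among 29 Polycomb genes 1 was higher, 2 were lower and 26 were not called, with a median of -0.07. These counts lay near the 7.48% and 4.16% of all genes. EZH2, the methyltransferase of the Polycomb repressive complex that marks silent HOX genes, stood at 132 and 144 CPM (-0.13). BMI1, a core subunit of the other Polycomb complex, was lower at 72.0 and 418 CPM (-2.53, -2.58 to -2.48). Its exons also belong to the read-through gene COMMD3-BMI1, and reads of the pair cannot be told apart. PHC1, of the same complex, was lower too, at 7.97 and 16.5 CPM (-1.0), a call that was lost under 2 of 4 other settings of scaling and pseudocount. CBX7, a subunit that reads the silencing mark, was higher at 75.7 and 18.2 CPM (2.03, 1.91 to 2.14). The large differences in this group were those of BMI1 and CBX7, both of the same complex.

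Retinoic acid switches on HOX genes from the low-numbered end in the embryo. Of 9 tested genes of the retinoic acid and CDX list, 0 were called in either direction, beside 7.48% and 4.16% of all genes, with a median log2 difference of 0.02. RARA, a receptor, stood at 94.0 and 107 CPM, and CYP26A1, which breaks retinoic acid down, at 8.17 and 4.68 CPM with a log2 difference of 0.74 (0.50 to 0.99). CDX1 and CDX2 were not analysed here. Of 17 tested genes next to the clusters, 1 was higher and 0 were lower, beside the same 7.48% and 4.16%, with a median of -0.01. It was CALCOCO1, beside the C cluster, at 93.3 and 38.0 CPM (1.29, 1.20 to 1.37). SKAP1, a T cell adaptor gene beside the low-numbered end of the B cluster, stood at 21.7 and 12.4 CPM, and its log2 difference of 0.78 (0.63 to 0.94) was not called.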

How the data were processed

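RNA of 1 library labelled DR and 1 library labelled WT was measured. The authors deposited estimated counts per gene, unscaled, with gene lengths. They were fractional for 9108 of 18267 genes with counts, and 663 genes had none. hg19 and Bowtie 0.12.2 are named in the submitters' processing notes, without a role, and the counting tool and annotation are not given in the sources used here. The authors' own log2 ratio, p-value, q-value and direction columns were not used.

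Counts were rounded to whole numbers and scaled by TMM (edgeR 4.0.16 in R 4.3.3, with Python 3.11.15 and SciPy 1.17.1). Genes with under 10 reads over both libraries (2057) were not tested. A gene was called at a difference of 1 or more in log2 (CPM + 0.5). With 1 library per group no quasi-likelihood model in edgeR could be fitted. Intervals were exact, at 95% (Poisson for levels, Clopper-Pearson for shares and differences, conditional for ratios of ratios), and cover counting error only. Named genes were all HOX genes, singly at 1 CPM or nearest to it, and otherwise in counts, and of each other list the called members with at least 10 CPM in either library, at most 6 by size, with PBX, MEIS, EZH2 and KMT2A. SKAP1, RARA, CYP26A1, PKNOX1 and PKNOX2 were added after their values were seen. Some genes and sequences that the rule would name are not reported here. The members and lists were chosen with earlier results of these data known. Alternatives were DESeq2 1.42.0 size factors, library totals, other pseudocounts, filters, detection limits and log2 limits, levels per length and, added after seeing the data, leaving out genes with fractional counts. Homeoboxes came from GENCODE 29 on GRCh38.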

Additional observations from a re-analysis of the deposited data

How the results depend on the processing

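The 6 detected HOX genes of each library were the same under DESeq2's size factors and library totals, and HOXB3 and HOXB4 remained past the limit under both. With a detection limit of 5 CPM, 4 genes were detected in the DR library, 2 in the WT library and 2 in both, and with a limit of 1 CPM per kb it was 5, 3 and 3. With 0.5 CPM it was 7, 7 and 6. A pseudocount of 0.1 CPM gave 5 HOX genes higher and 1 lower, and 1726 higher and 907 lower of all genes. A pseudocount of 5 CPM gave 0 HOX genes higher, and 423 higher and 333 lower of all genes, against 1212 and 674. A log2 limit of 2 gave 0 HOX genes higher, and 339 and 189 of all genes. Without genes with fractional counts, an alternative chosen after seeing the data, 709 genes were higher and 358 lower, since fewer genes were tested. Under a pseudocount of 5 CPM the log2 difference of HOXB3 was 0.79 and that of HOXB4 0.63, since a pseudocount that large shrinks them by construction. The paralog order of the 6 differences was kept under both scalings and both pseudocounts. PROX1 ranged from 0.93 to 1.41, MEIS1 from 0.78 to 1.08 and PHC1 from -1.04 to -0.73 over 4 settings of scaling and pseudocount, so that all 3 crossed the limit. No HOX value listed changed sign. Genes at a few reads cannot be ordered at this depth. No paired analysis was possible because there was 1 library per group, and for the same reason no library could be left out.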
